A study of Mus musculus with 6 samples.

Results

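The 34 genes described here carry out or steer glycolysis and move its substrate and product across membranes. They are glucose transporters, the enzymes from hexokinase to lactate dehydrogenase, the lactate transporters, and the kinases that hold pyruvate back from the mitochondrion. They were taken as a list of symbols, which was drawn up with earlier results of these data known, and all 34 were found among the 52550 genes of the deposited table. Their RNA was measured by mRNA sequencing in primary macrophages, which had been grown for 7 days out of the bone marrow of C57BL/6 mice under 25 ng/ml M-CSF, the growth factor that drives marrow cells into this lineage. The 6 libraries fall into 2 groups of 3: the C CM group had received medium in which normal chondrocytes had grown, and the AC CM group medium in which apoptotic chondrocytes had grown. Both groups thus received chondrocyte medium, and macrophages without it were not analysed here. The labels do not say how apoptosis was induced or how long the exposure lasted. They also do not say that replicates were separate mice or dishes, so p-values measure only the spread between these samples.

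Glycolysis splits glucose into pyruvate in the cytosol and yields ATP without oxygen. Hexokinase traps glucose as its phosphate, phosphofructokinase 1 makes the committed and most regulated step, and glyceraldehyde phosphate dehydrogenase opens the stretch of the pathway that returns ATP. Lactate dehydrogenase turns pyruvate into lactate, which leaves the cell through monocarboxylate transporters, whereas pyruvate dehydrogenase kinases hold pyruvate back from the mitochondrion. Macrophages raise glycolysis when they are activated by microbial products, and many of these genes are known targets of the hypoxia-inducible factor HIF and of MYC.

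The libraries held 65630784 to 80105872 counts. Summed macrophage markers lay between 21604 and 23625 counts scaled to library size (CPM) after C CM and between 20809.9 and 21717 after AC CM, with Lyz2 the most abundant, so the labelled cell type was present in all 6. By the test described below, 13.3% of all genes tested rose after AC CM and 13.3% fell. Of the 12 macrophage markers 2 rose, Msr1 (log2 fold change 1.58) and Mrc1 (0.54). Another 3 fell, Csf1r (-0.72), Mertk (-0.40) and Cd14 (-0.30). The Cd14 call was lost without C CM 2 or AC CM 1, 2 or 3. Marker sums of several other marrow cells were lower after AC CM. The neutrophil and precursor list went from 931 to 1078 CPM down to 206 to 222 (11 of 13 tested genes fell), the monocyte list from 1829 to 2078 down to 1235 to 1303 (5 of 10 fell), and the dendritic cell list from 386 to 418 down to 250.2 to 287 (9 of 10 fell). The B, T and NK cell list lay at 29.1 to 35.0 CPM after C CM and at 10.5 to 11.3 after AC CM (8 of 10 tested genes fell). The fibroblast list lay at 4385 to 5406 CPM after C CM and at 3569.7 to 3659 after AC CM (7 of 10 fell). In the erythroid and megakaryocyte list 3 of 11 tested genes fell, the platelet genes Ppbp (log2 fold change -2.24), Itga2b (-2.39) and Gp9 (-2.36), and 1 rose, Pf4 (0.64). Pf4 made up most of the list's sum, which was 312 to 373 CPM after C CM and 484 to 518 after AC CM. Chondrocyte markers summed to 72.4 to 84.4 CPM after C CM and 108 to 111 after AC CM, mostly Col2a1 and Col11a1. Of 7 tested genes 1 rose, Col11a1 (log2 fold change 0.81), while Col2a1 did not pass (0.19). Acan had 0 counts in all C CM libraries and Cnmd in all 6. Skeletal muscle markers were at 10.9 to 14.7 CPM in all libraries. Hepatocyte markers set the libraries AC CM 2 and AC CM 3 apart, with sums of 626 and 1445 CPM against 56.9 in AC CM 1 and 55.4, 10 and 10.3 in C CM 1, 2 and 3. In such bulk libraries, fewer cells of a type and less RNA per cell cannot be told apart, and the part of these other cell types in the results on glycolytic genes was not tested.

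All 34 genes passed the filter on low counts. By edgeR's quasi-likelihood test, with a Benjamini-Hochberg adjusted p under 0.05 over the 17863 genes tested, 12 rose after AC CM, 7 fell and 15 did not pass. The 19 called genes were 55.9% of the 34, beside 26.5% of all genes tested. The 12 that rose were 35.3% of the 34, where 13.3% of all genes rose, and the 7 that fell were 20.6%, where 13.3% of all genes fell. The changes were small. Only 3 of the 34, namely Fbp1, Slc2a6 and Pdk2, passed with at least a 2-fold change (6.24% of all genes tested did), and the median size of the change among the 19 called was 0.55 on the log2 scale, beside 0.58 among all called genes. Log2 fold changes throughout are AC CM over C CM, and their median was 0.11 over the 34 genes and -0.00458 over all genes tested. The share called depends on abundance. When only the 11052 genes averaging at least 5 CPM were tested, 36.5% of them passed. In that fit 10 of the 34 genes passed higher and 6 lower, and the called genes Pfkfb1, Fbp1 and Aldoc were not tested. The median was then 0.00 over the members tested and -0.010 over all genes tested. The 3 values of one group lay wholly above or below those of the other for 22 of the 34 genes (64.7%, beside 44.7% of all genes tested and 26.5% called). That held for every one of the 19 called genes.

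**Figure D1:**
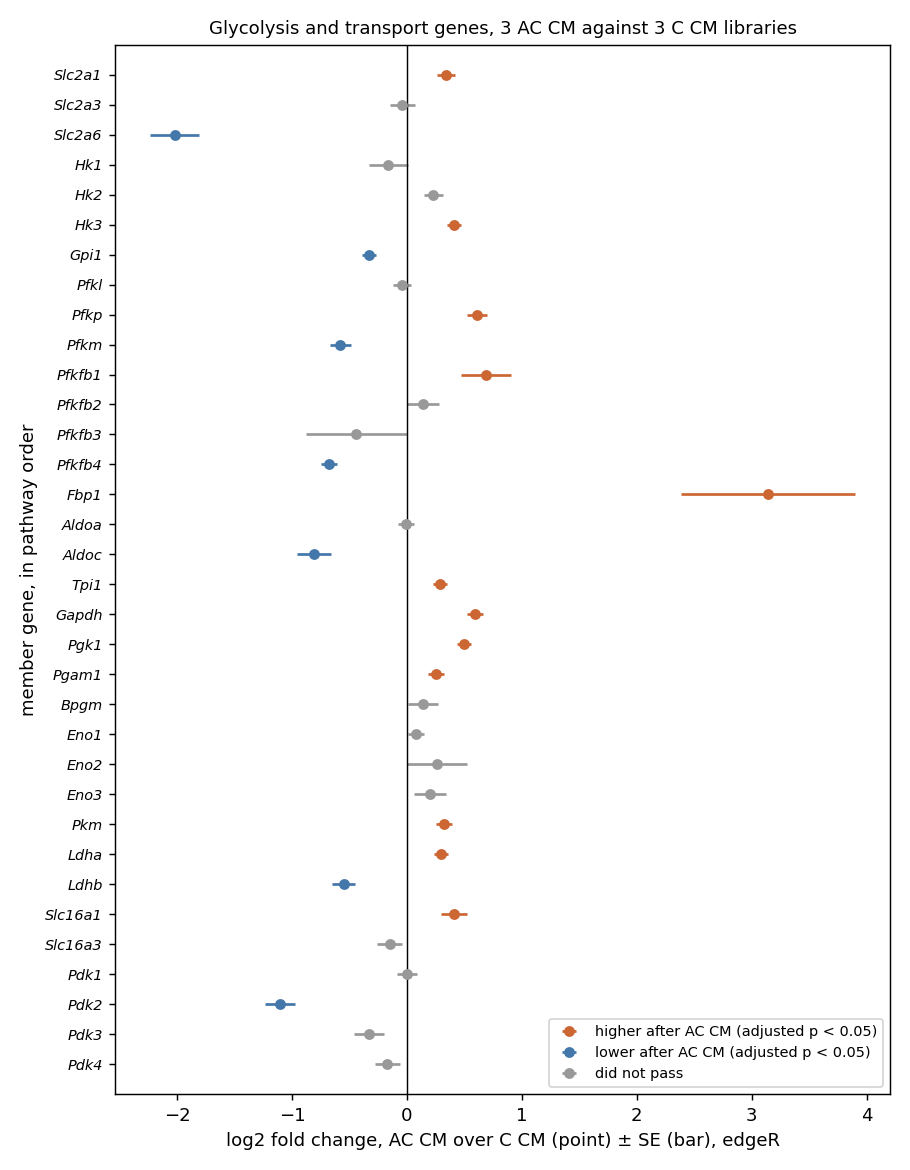
Log2 fold change of the 34 genes in pathway order, AC CM over C CM. Points are edgeR estimates and bars their standard error, coloured by whether the gene passed higher (12), passed lower (7) or did not pass (15). The enzymes from Tpi1 to Pgam1, with Pkm and Ldha, lie to the right of 0, whereas Slc2a6 at -2.02 and Pdk2 at -1.10 lie farthest to the left.

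The plot of log2 fold changes shows both directions within the glucose transporters, phosphofructokinase 1, the PFKFB enzymes and lactate dehydrogenase: in each of these families 1 gene rose and 1 fell. Of the 12 rises, 6 ran from Tpi1 to Ldha, with gaps at the enolases and Bpgm. The 7 falls were the transporter gene Slc2a6, the isomerase gene Gpi1, the less abundant isozyme genes Pfkm, Aldoc and Ldhb, and the regulatory enzyme genes Pfkfb4 and Pdk2. With the libraries AC CM 2 and AC CM 3 both left out, which leaves 1 AC CM library assumed to vary like the C CM libraries, 2 of the 34 passed higher (Pfkp and Gapdh) and 3 lower (Slc2a6, Pfkfb4 and Pdk2), when 6.59% of all genes tested passed in either direction. All 19 kept their direction in that fit, which was nearly fixed beforehand because their groups did not overlap.

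Many genes of the pathway are known HIF or MYC targets. For each gene a single RefSeq transcription start (GRCm38.p6) was used, the one nearest the upstream end of its deposited interval. The 250 bases upstream of that start were searched on both strands for the HIF core (ACGTG or GCGTG) and the MYC-type E-box CACGTG. An E-box contains the core ACGTG on each strand. Of the 34 genes, 33 had an entry. The HIF core was found in 25 of 33 (75.8%), beside 54.3% of the 11581 tested genes with an entry. It was found in 9 of 12 genes that rose, 6 of 7 that fell and 10 of 14 that did not pass. The E-box was found in 4 of 33 (12.1%, beside 8.1%), in Ldha and Slc16a1, which rose, and in Pfkm and Pdk2, which fell. The windows of 4 genes are shown because they put genes of opposite direction side by side: Ldha and Pgk1 rose and Slc2a6 and Pdk2 fell, and each window holds the core. Capitals mark the core, on either strand, and the E-box. The windows are chr7:46845554-46845803 (plus strand, Ldha), chrX:106186850-106187099 (plus strand, Pgk1), chr2:27027999-27028248 (minus strand, Slc2a6) and chr11:95041372-95041621 (minus strand, Pdk2).
Ldha: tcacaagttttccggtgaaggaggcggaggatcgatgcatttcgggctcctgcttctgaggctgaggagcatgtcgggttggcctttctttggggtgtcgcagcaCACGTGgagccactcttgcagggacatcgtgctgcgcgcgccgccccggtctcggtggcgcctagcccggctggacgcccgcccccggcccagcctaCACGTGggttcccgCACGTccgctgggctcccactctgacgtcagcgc
Pgk1: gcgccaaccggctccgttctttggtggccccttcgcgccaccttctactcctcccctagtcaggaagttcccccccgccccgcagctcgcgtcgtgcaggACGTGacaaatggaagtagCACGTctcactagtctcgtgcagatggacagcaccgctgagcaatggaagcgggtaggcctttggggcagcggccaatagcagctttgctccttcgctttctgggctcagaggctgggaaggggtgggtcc
Slc2a6: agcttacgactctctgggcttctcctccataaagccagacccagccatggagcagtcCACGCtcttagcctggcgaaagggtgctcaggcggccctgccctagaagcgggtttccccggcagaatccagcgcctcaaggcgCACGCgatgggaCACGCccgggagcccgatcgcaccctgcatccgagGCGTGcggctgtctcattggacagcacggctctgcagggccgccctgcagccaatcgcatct
Pdk2: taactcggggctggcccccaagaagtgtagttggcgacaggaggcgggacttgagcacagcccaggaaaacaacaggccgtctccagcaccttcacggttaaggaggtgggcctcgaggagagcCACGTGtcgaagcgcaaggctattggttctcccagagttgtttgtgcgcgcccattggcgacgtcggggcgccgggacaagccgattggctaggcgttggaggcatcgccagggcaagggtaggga
Other starts of a gene were not searched, so the counts rest on this choice of start. The start used lies inside the deposited interval by 4329 bases for Ldha, 8458 for Aldoa and 13205 for Pfkfb2. A match of letters does not show that a factor binds.

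Glucose crosses membranes through facilitative transporters. Slc2a1, which encodes the main transporter GLUT1 (chromosome 4, 119108711 to 119137983, plus strand), was at 43.0, 37.7 and 41.6 CPM in C CM 1 to 3 and at 51.8, 51.7 and 51.6 CPM in AC CM 1 to 3. All AC CM libraries were above all C CM libraries, and the gene rose 1.27-fold (log2 fold change 0.34, SE 0.08, adjusted p = 0.0105). Slc2a6, which encodes GLUT6 (chromosome 2, 27021363 to 27027998, minus strand), was at 13.7, 11.7 and 9.97 CPM after C CM and at 3.08, 3.50 and 2.14 CPM after AC CM. It fell 4.05-fold (-2.02, SE 0.21, adjusted p = 1.93e-04), the largest fall among the 34 genes. Slc2a3, which encodes the high-affinity transporter GLUT3, averaged 13.1 ± 0.821 CPM (SD, n = 3) after C CM and 12.8 ± 0.0941 after AC CM and did not pass (-0.04, adjusted p = 0.841).

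Levels of different genes were compared as TPM, which divides each gene's counts by its transcript length and scales each library to the same total. Per length, Slc2a1 made up 58.2, 56.6 and 61.1% of the 3 transporters in C CM 1 to 3 and 77.3, 76.4 and 79.0% in AC CM 1 to 3. The share of Slc2a6 went from 25.8 ± 3.07% to 6.64 ± 1.48% and that of Slc2a3 from 15.6 ± 1.78% to 15.8 ± 0.177%. The first 2 shares did not overlap between groups, which gives p = 0.10 by a two-sided exact permutation test, the smallest that 3 against 3 allows (0.153 after adjustment over the 23 shares tested). The summed level was 46.8 ± 1.93 TPM after C CM and 45.5 ± 0.874 after AC CM, with overlapping groups. The sum thus differed by less than its spread while its makeup differed.

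Hexokinases phosphorylate glucose. Hk3 (chromosome 13, 55005985 to 55021385, minus strand), the isozyme typical of myeloid cells, was at 229, 209 and 211 CPM after C CM and at 294, 284 and 282 CPM after AC CM. It rose 1.32-fold (0.41, SE 0.06, adjusted p = 0.00167), with all AC CM libraries above all C CM libraries. Hk2, the inducible isozyme, was at 71.9 ± 5.20 CPM after C CM and 84.3 ± 4.85 after AC CM (0.23, SE 0.08). It did not pass (adjusted p = 0.0639), but passed without C CM 1 (adjusted p = 0.0174) and with DESeq2 (adjusted p = 0.0493). The authors' deposited table gives Hk2 an adjusted p of 0.0641. With 1 library left out in turn, its edgeR adjusted p reached 0.211. Hk1, the housekeeping isozyme, was at 97.9 ± 21.2 and 87.3 ± 11.9 CPM and did not pass (-0.16, adjusted p = 0.529). Per length, Hk3 was already the largest of the 3 after C CM (63.8 ± 3.21%) and was larger after AC CM (70.1 ± 1.32%). The share of Hk1 was 23.9 ± 3.32% and 17.8 ± 2.18%, and that of Hk2 12.4 ± 0.227% and 12.0 ± 0.879%. With the length of all exons joined in place of the transcript length, Hk1 held 13.9% after C CM and Hk2 14.6%, and Hk3 was still the largest (71.5%). Summed over the 3 isozymes the level was 231 ± 13.8 TPM after C CM and 283 ± 4.71 TPM after AC CM, a ratio of 1.22 with no overlap.

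**Figure D2:**
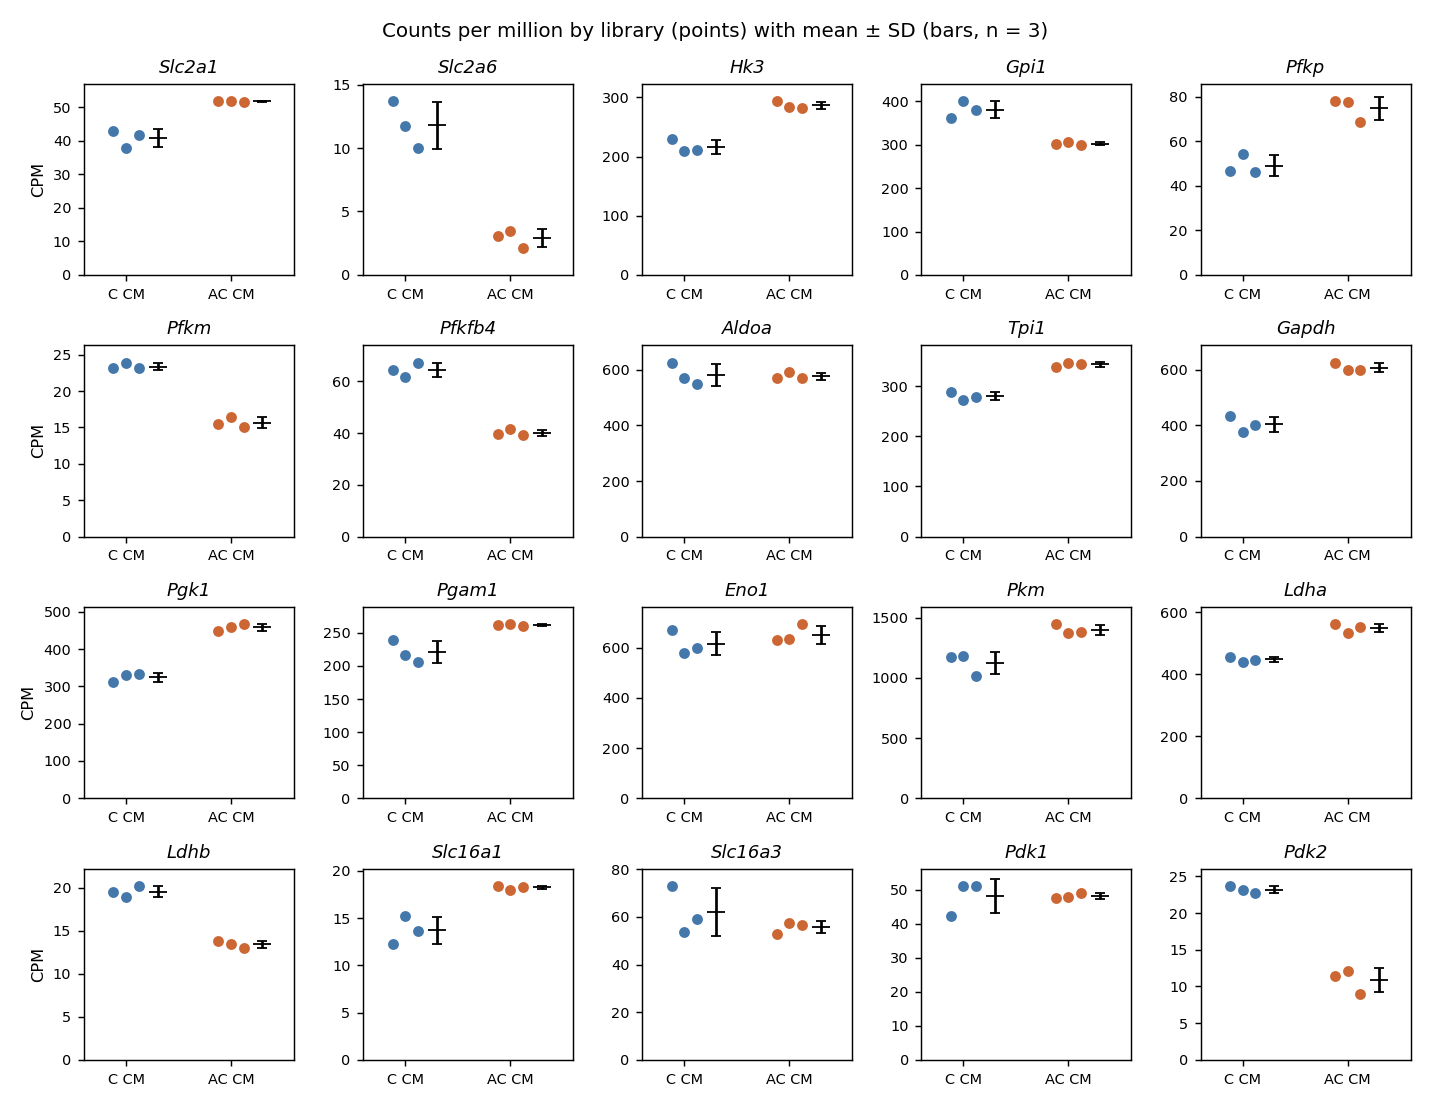
CPM of 20 of the 34 genes in each library, on a linear axis from 0. Points are the 3 C CM (blue) and 3 AC CM (orange) libraries, and black bars the mean ± SD. The 20 were chosen by hand. The groups are apart for the 16 that passed, as for every called gene, and overlap for Aldoa, Eno1, Slc16a3 and Pdk1, which did not pass. That count follows from the choice. Over all members the groups were apart for 22 of 34, beside 44.7% of all genes tested.

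Gpi1 (chromosome 7, 34201330 to 34230336, minus strand), the isomerase that makes fructose 6-phosphate and, once secreted, also acts as a cytokine, was at 361, 400.2 and 379 CPM after C CM and at 300.5, 307 and 299 CPM after AC CM. It fell 1.26-fold (-0.33, SE 0.06, adjusted p = 0.00442), and the groups did not overlap. Of its exonic bases 11.5% lie opposite the lincRNA Gm26762 (-0.14, adjusted p = 0.595), and it is not known if strand was used in counting.

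Phosphofructokinase 1 is built from liver (Pfkl), platelet (Pfkp) and muscle (Pfkm) type subunits. Pfkp (chromosome 13, 6579768 to 6648777, minus strand) was at 46.7, 54.3 and 46.0 CPM after C CM and at 78.0, 77.5 and 68.5 CPM after AC CM. It rose 1.52-fold (0.61, SE 0.09, adjusted p = 0.00144), and its lowest AC CM library was above its highest C CM library. Its 5.6% of exonic bases opposite Pitrm1 are a limit, since Pitrm1 rose as well (0.40, adjusted p = 0.00255). Pfkm (chromosome 15, 98092589 to 98132447, plus strand) was at 23.1, 23.9 and 23.1 CPM after C CM and at 15.5, 16.5 and 15.0 CPM after AC CM. It fell 1.49-fold (-0.58, SE 0.09, adjusted p = 0.00206). Pfkl, the most abundant subunit in both groups, did not pass (98.5 ± 8.45 and 95.8 ± 3.03 CPM, adjusted p = 0.757).

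The subunit makeup per length therefore went in opposite directions for Pfkp and Pfkm. Pfkp held 23.3, 28.0 and 25.2% of the step in C CM 1 to 3 and 37.9, 36.6 and 35.3% in AC CM 1 to 3. Pfkm held 17.5 ± 0.829% after C CM and 11.1 ± 0.188% after AC CM. Pfkl held 56.9 ± 2.93% and 52.3 ± 1.19%, a difference of -4.64 points that was 0.32 points when the exon union length replaced the transcript length. With the union length Pfkp held 14.4% and Pfkm 27.6% after C CM, the reverse of their order by transcript length, while the differences kept their direction (8.22 points for Pfkp and -8.54 for Pfkm). The summed level was 102 ± 1.89 TPM after C CM and 109 ± 4.89 TPM after AC CM, a ratio of 1.08.

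The PFKFB enzymes make and break fructose 2,6-bisphosphate, the strongest activator of phosphofructokinase 1. Pfkfb4 (chromosome 9, 108991778 to 109032228, plus strand) was at 64.4, 61.5 and 67.2 CPM after C CM and at 39.5, 41.5 and 39.2 CPM after AC CM. It fell 1.61-fold (-0.68, SE 0.07, adjusted p = 2.08e-04), with no overlap. Pfkfb1, the liver and muscle type, was low, at 2.82, 1.89 and 1.87 CPM after C CM and 3.66, 3.30 and 3.65 CPM after AC CM. It rose 1.61-fold (0.69, SE 0.22, adjusted p = 0.0456), but the call was lost without C CM 2 or 3 or AC CM 1, 2 or 3 (adjusted p = 0.0898 to 0.130), and the authors' deposited table gives it an adjusted p of 0.0506. Pfkfb3, the isozyme known for high kinase activity and for induction in activated macrophages, had the widest standard error of the 34 genes after Fbp1. It was at 33.8, 79.9 and 69.9 CPM after C CM and at 36.5, 65.0 and 33.6 CPM after AC CM, and these groups overlap (-0.44, SE 0.44, adjusted p = 0.530). Pfkfb2 did not pass (17.7 ± 3.13 and 19.6 ± 1.44 CPM, adjusted p = 0.505).

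Per length, Pfkfb4 was the largest of the 4 after C CM (50.8 ± 8.62%), ahead of Pfkfb3 (34.8 ± 9.78%). After AC CM it held 42.0 ± 4.76% and Pfkfb3 34.4 ± 7.64%, and the Pfkfb4 shares overlapped (exact permutation p = 0.300). The shares of Pfkfb1 (3.56 ± 1.51% and 7.50 ± 1.45%) and Pfkfb2 (10.8 ± 0.341% and 16.1 ± 1.6%) did not overlap. The family summed to 81.2 ± 13.9 TPM after C CM and 61.6 ± 9.80 TPM after AC CM, with overlapping groups.

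Fbp1 (chromosome 13, 62864753 to 62888282, minus strand) encodes fructose bisphosphatase, which reverses the phosphofructokinase step in gluconeogenesis and is abundant in liver. It was nearly absent after C CM, with 16, 16 and 9 counts (0.244, 0.234 and 0.134 CPM), and had 28, 111 and 288 counts after AC CM (0.397, 1.44 and 3.61 CPM). Its edgeR log2 fold change was 3.14 (SE 0.76, adjusted p = 0.0177), the largest rise of the 34 genes and the one with the widest error. The highest values were in AC CM 2 and 3, the libraries with the most liver transcripts: albumin (Alb) was at 38.1, 469 and 971 CPM in AC CM 1 to 3 and at 30.1, 1.32 and 0.254 CPM in C CM 1 to 3. With AC CM 2 and 3 left out Fbp1 was at 0.95 (adjusted p = 0.634). Without AC CM 3 it was at 2.16 (adjusted p = 0.0563), and the call was also lost without C CM 1 (0.0831), C CM 2 (0.0675) or C CM 3 (0.0764), and with limma-voom (0.156).

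**Figure D3:**
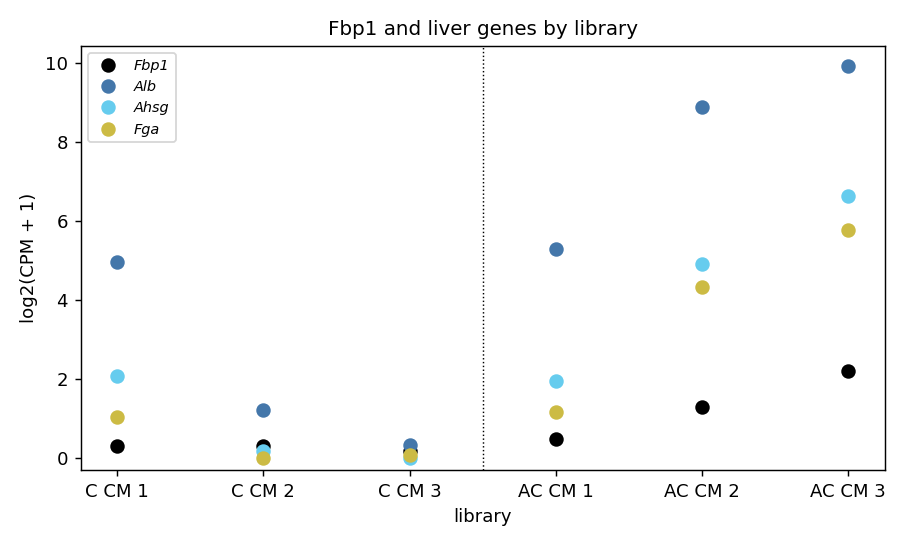
Fbp1 and 3 genes of hepatocytes in each of the 6 libraries, as log2(CPM + 1). The dotted line parts the groups. All 4 genes are highest in AC CM 3, next highest in AC CM 2, and C CM 1 and AC CM 1 lie close to each other in Alb and Ahsg.

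The plot of Fbp1 beside liver genes shows that Fbp1 has its highest values where Alb, Ahsg and Fga have theirs. AC CM 1, with liver marker sums close to those of C CM 1, had an Fbp1 level of 0.397 CPM against 0.244. Among the other 18 called genes, the ratio between AC CM 1 and AC CM 3 was farthest from 1 in Slc2a6, at 3.08 and 2.14 CPM.

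Aldolase splits fructose 1,6-bisphosphate. Aldoa, which supplied 99.4 ± 0.0413% of aldolase TPM after C CM and 99.7 ± 0.0331% after AC CM, did not pass (582 ± 40.0 and 577 ± 13.4 CPM, -0.01, adjusted p = 0.915). Aldoc (chromosome 11, 78322968 to 78327781, plus strand), the brain type, was at 6.30, 6.56 and 6.18 CPM after C CM and at 3.38, 4.12 and 3.34 CPM after AC CM. It fell 1.76-fold (-0.81, SE 0.15, adjusted p = 0.00441), with no overlap. The summed aldolase level was 849 ± 35.3 TPM after C CM and 853 ± 25.9 TPM after AC CM.

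The 4 single-gene or nearly single-gene steps that follow all rose. Tpi1 (chromosome 6, 124810586 to 124814296, minus strand), which interconverts the triose phosphates, was at 289, 273 and 278 CPM after C CM and at 339, 347 and 344 CPM after AC CM (1.23-fold, log2 0.29, SE 0.06, adjusted p = 0.00526). Gapdh (chromosome 6, 125161715 to 125166467, minus strand), the NADH-producing step, was at 432, 376 and 402 CPM after C CM and at 625, 597 and 600.1 CPM after AC CM. It rose 1.5-fold (0.59, SE 0.07, adjusted p = 3.24e-04). Gapdh is often used as a reference gene, and here every AC CM library was above every C CM library.

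Pgk1 (chromosome X, 106187100 to 106203699, plus strand), the first ATP-yielding enzyme whose upstream window holds the HIF core, was at 311, 329.9 and 334 CPM after C CM and at 449.7, 459 and 467 CPM after AC CM. It rose 1.41-fold (0.50, SE 0.06, adjusted p = 3.81e-04). Pgam1 (chromosome 19, 41911871 to 41918664, plus strand), the phosphoglycerate mutase, was at 239, 217 and 206 CPM after C CM and at 262, 263 and 260.0 CPM after AC CM (1.19-fold, 0.25, SE 0.07, adjusted p = 0.0276). Its groups did not overlap, but the call was lost without C CM 2 or 3 or AC CM 1, 2 or 3 (adjusted p = 0.0832 to 0.10). Pseudogenes may share reads with these genes: Gapdh-ps15 held 12172 counts in all (0.06, adjusted p = 0.681), Pgk1-rs7 3470 (0.63, adjusted p = 0.00674) and Pgam1-ps2 5561 (0.14, adjusted p = 0.471), beside 218995, 169789 and 103821 for Gapdh, Pgk1 and Pgam1.

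Bpgm, which makes the haemoglobin ligand 2,3-bisphosphoglycerate, and the 3 enolase genes did not pass. Bpgm was at 10.6 ± 1.30 and 11.6 ± 0.705 CPM (0.14, adjusted p = 0.475). Eno1, which supplied 98.7 ± 0.0982% of enolase TPM after C CM and 98.6 ± 0.103% after AC CM, was at 616 ± 46.9 and 652 ± 35.3 CPM (0.08, adjusted p = 0.459). Eno2, the neuronal type, and Eno3, the muscle type, were at 0.26 and 0.20 (adjusted p = 0.509 and 0.336). The enolase step thus stood between 2 steps that rose, with a summed level of 675 ± 39.8 TPM after C CM and 727 ± 41.8 TPM after AC CM and overlapping groups.

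Pkm (chromosome 9, 59656368 to 59679375, plus strand), pyruvate kinase of muscle and most other tissues, was the most abundant of the 34 genes per length in both groups. It was at 1170.4, 1179.8 and 1019.6 CPM after C CM and at 1446, 1371 and 1378 CPM after AC CM. It rose 1.25-fold (0.32, SE 0.07, adjusted p = 0.0101), and the call was lost without AC CM 1 (adjusted p = 0.0556). Gene counts do not separate its PKM1 and PKM2 splice forms. The transcript AC160637.1, which shares 15.3% of the exonic bases of Pkm on the same strand, rose from 32.7 ± 3.65 to 73.5 ± 4.50 CPM (1.17, adjusted p = 5.68e-05).

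Lactate dehydrogenase is a tetramer of A and B subunits, of which the A form is known to favour making lactate. Ldha (chromosome 7, 46841475 to 46855627, plus strand) was at 457, 439 and 447 CPM after C CM and at 561, 534 and 553 CPM after AC CM. It rose 1.23-fold (0.30, SE 0.06, adjusted p = 0.00466). Ldhb (chromosome 6, 142490249 to 142507957, minus strand) was at 19.5, 18.9 and 20.2 CPM after C CM and at 13.8, 13.4 and 13 CPM after AC CM. It fell 1.46-fold (-0.55, SE 0.10, adjusted p = 0.00329). Neither gene's groups overlapped, and the B share of lactate dehydrogenase TPM was 5.46, 5.52 and 5.78% in C CM 1 to 3 and 3.22, 3.29 and 3.08% in AC CM 1 to 3 (exact permutation p = 0.10).

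Lactate leaves through the monocarboxylate transporters. Slc16a1, which encodes MCT1 (chromosome 3, 104638668 to 104658462, plus strand), was at 12.3, 15.2 and 13.6 CPM after C CM and at 18.4, 18.0 and 18.3 CPM after AC CM. It rose 1.33-fold (0.41, SE 0.11, adjusted p = 0.0240), but the call was lost without C CM 3 or AC CM 1, 2 or 3 (adjusted p = 0.0587 to 0.0763). Slc16a3, which encodes MCT4, the exporter of strongly glycolytic cells, was at 61.9 ± 10 CPM after C CM and 55.7 ± 2.46 after AC CM and did not pass (-0.15, adjusted p = 0.366). Slc16a3 remained the larger of the pair per length, with 81.9 ± 3.83% after C CM and 75.7 ± 0.994% after AC CM, and their sum was 38.1 ± 3.69 and 37.8 ± 1.52 TPM.

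The pyruvate dehydrogenase kinases switch off the complex that turns pyruvate into acetyl-CoA. Pdk2 (chromosome 11, 95026258 to 95041354, minus strand), the broadly expressed form, was at 23.7, 23.1 and 22.8 CPM after C CM and at 11.4, 12.1 and 9.03 CPM after AC CM. It fell 2.14-fold (-1.10, SE 0.13, adjusted p = 3.63e-04), and the highest AC CM library, at 12.1 CPM, was far below the lowest C CM library, at 22.8 CPM. Pdk1, a known HIF target, was at 48.1 ± 5.06 and 48.1 ± 0.760 CPM (0.00, SE 0.09, adjusted p = 0.998). Pdk3 (17.3 ± 1.49 and 13.8 ± 1.70 CPM, -0.33, adjusted p = 0.0912) and Pdk4, the form raised by fasting (21.8 ± 2.53 and 19.4 ± 0.893 CPM, -0.17, adjusted p = 0.309), did not pass. Per length, Pdk2 was the largest of the 4 after C CM, with 30.4 ± 2.35%, and the smallest after AC CM, with 18.4 ± 2.80%. The share of Pdk1 was 27.2 ± 1.5% and 35.4 ± 1.19%. The 4 kinases summed to 74.8 ± 5.82 TPM after C CM and 58.4 ± 0.857 TPM after AC CM, a ratio of 0.781 with no overlap.

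**Figure D4:**
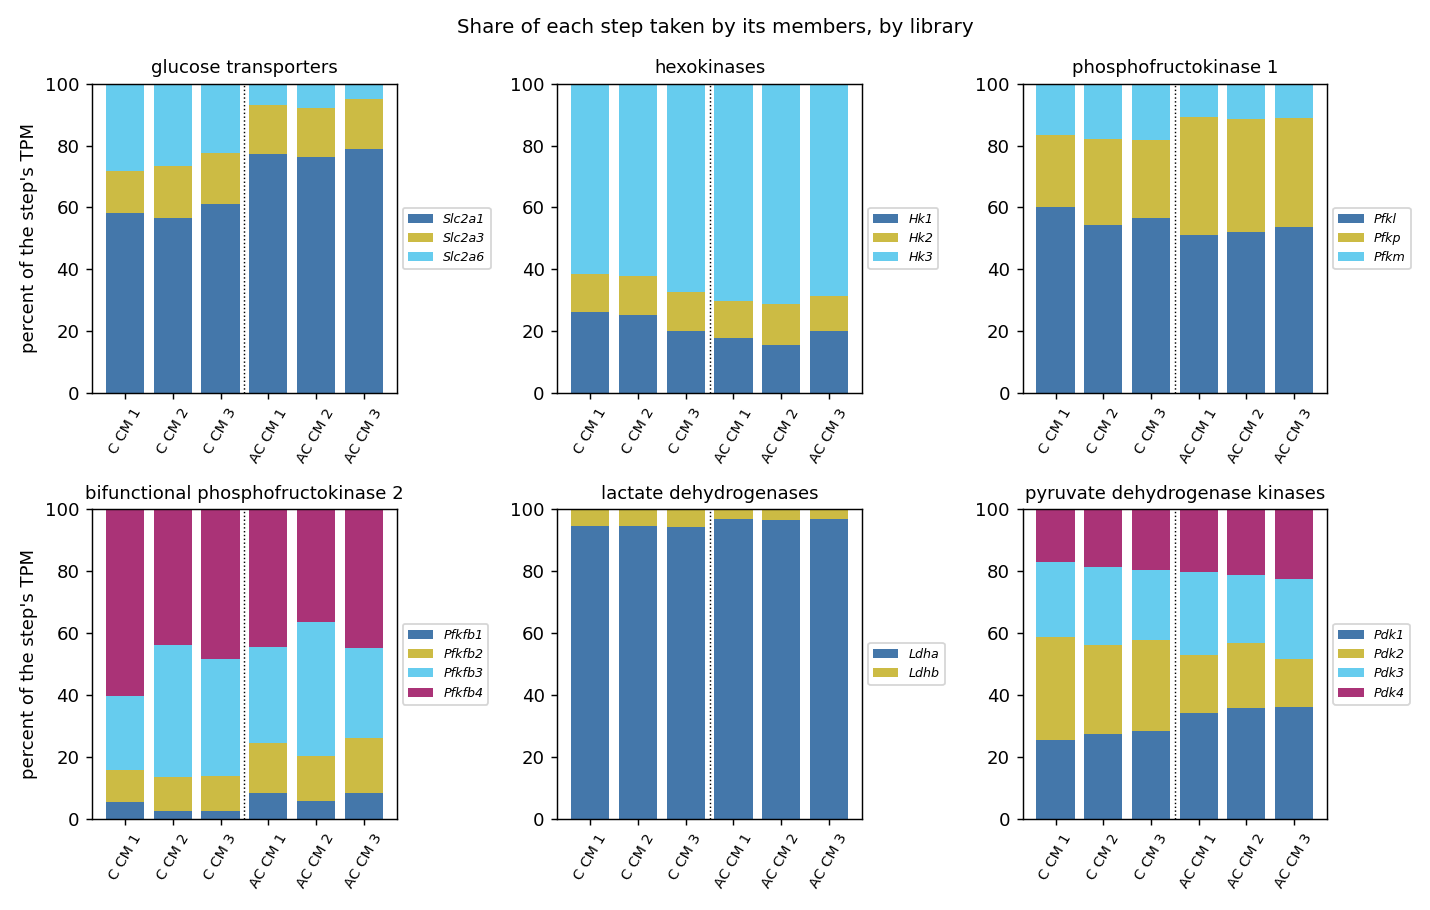
Share of each gene in the TPM of its step, in percent, for 6 of the steps with several genes. Each bar is 1 library, with C CM to the left of the dotted line and AC CM to the right. Slc2a1, Hk3, Pfkp, Ldha and Pdk1 hold larger shares in all AC CM libraries than in any C CM library.

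Shares of the same step are not independent, and with 3 libraries a group no share could pass. In the plot of shares, Pfkfb3 and Pfkfb4 varied most between libraries of a group, with Pfkfb4 at 60.4, 43.7 and 48.4% in C CM 1 to 3.

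Read by step, the summed TPM was highest for pyruvate kinase after C CM (1012 ± 57.6 TPM), followed by the aldolases (849 ± 35.3), and those steps did not overlap. The enolases (675 ± 39.8) and Gapdh (623 ± 38.3) overlapped in that order, as did Gapdh and the lactate dehydrogenases (589 ± 17.0). Pgk1 (391 ± 25.4) and Tpi1 (382 ± 10.2) overlapped below them, and so did Gpi1 (289 ± 19.5) and the mutases (283 ± 13.9). Hexokinases (231 ± 13.8), phosphofructokinase 1 (102 ± 1.89), the kinases of pyruvate dehydrogenase, the transporters and Fbp1 were lower. After AC CM, Gapdh stood at 952 ± 15.2 TPM and above the aldolases at 853 ± 25.9 TPM, and all 3 AC CM values of Gapdh were above all 3 of the aldolases.

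**Figure D5:**
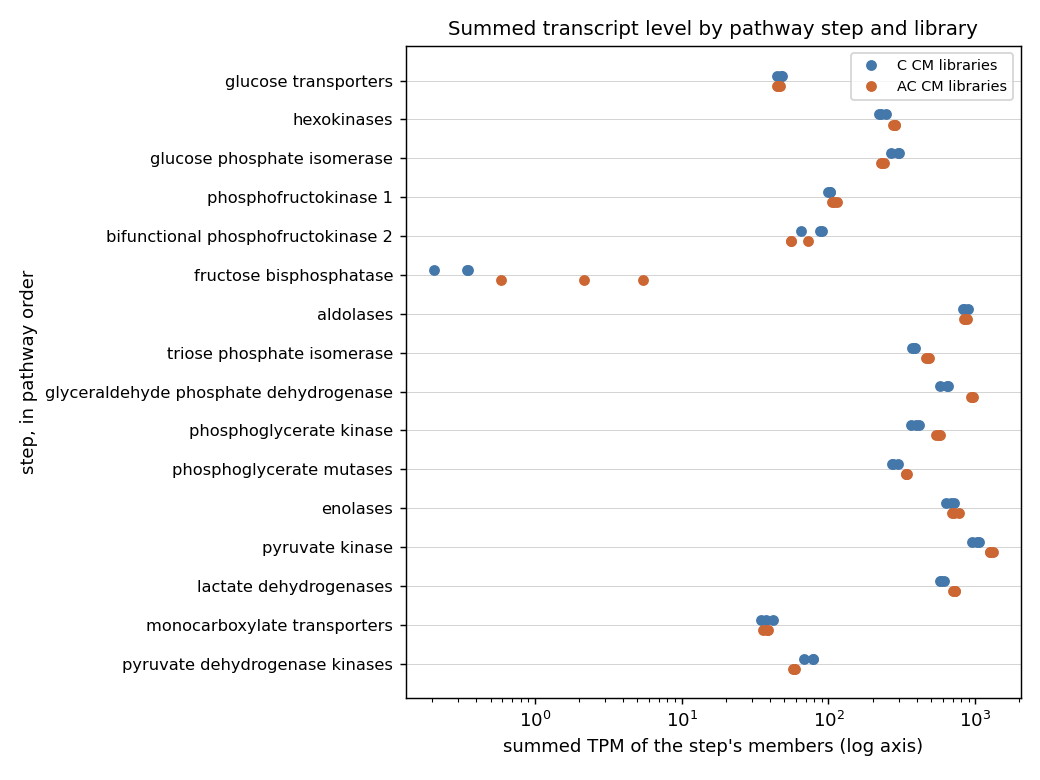
Summed TPM of the genes of each of 16 steps in each library, on a log axis, in pathway order. Blue points are C CM and orange points AC CM libraries. Fbp1 is the lowest step, the transport steps overlap between groups, and the steps from triose phosphate isomerase to pyruvate kinase, other than the enolases, are shifted to the right after AC CM.

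The plot of summed levels places the differences along the route. The ratio of AC CM to C CM was 1.24 for triose phosphate isomerase, 1.53 for Gapdh, 1.43 for Pgk1, 1.20 for the mutases, 1.26 for pyruvate kinase and 1.21 for the lactate dehydrogenases, with no overlap in any of these. Among transporters, the sums over the 3 glucose transporters (0.974) and the 2 monocarboxylate transporters (0.993) of the 34 genes overlapped. In the glucose transporter sum, Slc2a1 was at 27.4 ± 1.91 TPM after C CM and 35.3 ± 0.237 after AC CM. Slc2a6 was at 12.1 ± 1.58 and 3.03 ± 0.726 TPM. The even sum therefore does not mean that each transporter was unchanged. Both sums leave out further transporters such as Slc2a8, Slc2a9 and Slc16a7, which did not pass. Gpi1 (0.807) and the pyruvate dehydrogenase kinases (0.781) were lower without overlap.

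Genes of neighbouring routes were counted from 6 lists, with 83 of 92 genes tested, of which 11 rose and 10 fell, where 13.3% of all genes rose and 13.3% fell. Among the minor isozymes and further transporters, 17 of 26 were tested, 1 rose and 3 fell. Tigar, a bisphosphatase that lowers fructose 2,6-bisphosphate, rose (0.79, SE 0.15, adjusted p = 0.00421). Emb, the chaperone embigin of monocarboxylate transporters, fell from 98.4 ± 10.3 to 53.0 ± 0.274 CPM (-0.89), the muscle mutase gene Pgam2 fell (-1.59), and so did the D-lactate dehydrogenase gene Ldhd (-1.13, adjusted p = 0.0434), a call lost without C CM 1 or 3 or AC CM 1 or 2 (adjusted p = 0.118 to 0.151).

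Of the 11 genes listed for the entry of pyruvate into the mitochondrion, its use there and the control of that use, 4 rose and 0 fell. Pdp1, the phosphatase that reverses the action of the pyruvate dehydrogenase kinases, was at 27.2, 28.6 and 27.5 CPM after C CM and at 48.0, 42.6 and 47.4 CPM after AC CM (0.73, SE 0.08, adjusted p = 2.82e-04). It thus moved opposite to Pdk2, with no overlap in either gene. The complex subunits Dlat (0.41), Pdhx (0.64) and Dld (0.38) rose as well, Dld with a call lost without AC CM 1 (adjusted p = 0.0660) or AC CM 2 (0.0595). At an unadjusted p under 0.05 there were 6 of the 11. Without C CM 1 there was 1 fall (Pdpr, adjusted p = 0.00218) and without C CM 2 likewise (Mpc1, adjusted p = 0.0403).

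Of 8 pentose phosphate genes only Rpe, an epimerase of the non-oxidative branch, passed (0.97, adjusted p = 0.0478), with values of 36.7, 19.2 and 18.2 CPM after C CM and 49.2, 46.5 and 49.7 CPM after AC CM. That call was lost without C CM 2 or 3 or AC CM 1, 2 or 3 (adjusted p = 0.0969 to 0.118). Of 15 glycogen genes 2 rose and 2 fell. The branching enzyme gene Gbe1 (0.53) and the UDP-glucose pyrophosphorylase gene Ugp2 (0.54) rose, and the phosphorylase gene Pygl (-0.63) was among those that fell. The glycogen synthase gene Gys1 did not pass (-0.03). The count of falls was 1 without C CM 2, AC CM 1 or AC CM 2. Of 13 genes of the branches to hexosamine, glycerol phosphate and serine, 0 passed in the main edgeR fit and 2 had an unadjusted p under 0.05. With DESeq2 2 passed and with limma-voom 1. In other edgeR fits Gnpnat1 passed with a replicate block (adjusted p = 0.0468), counts divided by 4 (0.0477) and without C CM 3 (0.0465). Pgm3 passed without C CM 2 (adjusted p = 0.0494).

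Of 19 regulators of glycolytic genes 3 rose and 5 fell. Txnip and Arrdc4, arrestin-family genes that restrain glucose uptake and are induced by glucose through the ChREBP and MondoA factors, fell together. Txnip was at 934, 833 and 769 CPM after C CM and 578, 616 and 632 CPM after AC CM (-0.47, adjusted p = 0.00261), and Arrdc4 at 48.7, 49.0 and 51.6 CPM and 33.4, 30.8 and 30.7 CPM (-0.65, adjusted p = 3.55e-04). Myc rose (0.63, SE 0.12, adjusted p = 0.00477), as did Prkaa1, a catalytic subunit of the energy sensor AMPK (0.48, SE 0.09, adjusted p = 0.00371). Hif1a, named here after its value was seen, was at 161 ± 27.4 CPM after C CM and 157 ± 2.67 after AC CM (-0.03, adjusted p = 0.876) and passed lower without C CM 1 (-0.16, adjusted p = 0.0197). The number of regulators that fell was 3 without AC CM 1 or without AC CM 2.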

How the data were processed

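RNA of 6 macrophage samples, 3 per group by the treatment in each title, was measured by mRNA sequencing. The authors deposited a single table of raw read counts per gene, whole numbers whose totals differ between samples. Its normalized signal columns, also deposited, equal the counts divided by 1 constant per sample and were not tested, and the deposited log2 fold changes and p-values are the authors' own comparison, read for the genes named. The submitters' processing notes list, without saying what each did, R 3.4.3, DESeq2 1.18.1, HISAT2 2.1.0 and fastp 0.17.1. The genome build, the strand setting and the counting program were not given in the sources used here. Positions are the deposited table's, and 95.2% of the identifiers matched to GENCODE M21 (GRCm38) had the same ones there.

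With edgeR 4.0.16 (R 4.3.3), filterByExpr kept 17863 genes, TMM factors set the scale, and glmQLFTest after a robust fit gave the p-values. The model held the group alone, and p-values were adjusted over all 17863 genes by Benjamini-Hochberg, at a threshold of 0.05. CPM uses the TMM-scaled library sizes. TPM divides by the length of each gene's principal protein-coding transcript. For Aldoa, listed more than once, the entry with 248209 counts was used, not that with 61. Counts of 4 were commoner than counts of 3 (696 to 814 genes per library against 394 to 446), so totals may overstate independent fragments. Shares were compared by exact permutation over samples. DESeq2 1.42.0, limma-voom 3.58.1, other scalings and filters, a replicate block, counts divided by 4 and left-out libraries were tried as alternatives, and exon union lengths were added after the data were seen. On data simulated for AC CM against C CM, with 17443 genes tested, the fit called 46 of 91 genes changed 2-fold, 38 of 95 changed 1.5-fold and 17 of 17257 unchanged. Beside the 46 and 38 true calls, those 17 false calls are a larger part of all calls than the threshold of 0.05 aims for. Only 200 genes were changed in the simulation, whereas 26.5% of genes were called in the data. The adjusted threshold was therefore stricter in the simulation, and its shares do not give the power of the fit on the data. A gene that did not pass may still have differed. Members that passed are given library by library, others by mean and SD. Of each pathway list up to 4 called genes with the smallest p are named. Some genes that the lists hold are not reported here. The members and lists were chosen with earlier results of these data known. Python 3.11.15 was used with scipy 1.17.1, matplotlib 3.10.9, numpy 2.4.6 and pandas 2.3.3.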

Additional observations from a re-analysis of the deposited data

How the results depend on the processing

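All 19 called genes kept their direction in each of the 17 alternative fits in which they were tested. Their groups did not overlap, so leaving out libraries could hardly turn a direction, and this is little evidence of robustness. With AC CM 2 and 3 both left out, 2 of the 34 genes passed higher and 3 lower, and of the neighbouring genes 1 passed higher and 3 lower. That fit has 4 libraries, and its log2 fold changes stayed close to those with all 6 for the called genes other than Fbp1 (0.95 against 3.14). Slc2a6, Pfkp, Pfkfb4, Gapdh and Pdk2 passed in every fit, and 13 genes (7 higher, 6 lower) in every fit but that one. With 1 library left out in turn, 8 to 12 of the 34 genes passed higher and 7 lower. In those fits 17.1% (without AC CM 3) to 27.0% (without C CM 1) of all genes tested passed in either direction, beside 26.5% with all 6. Over the same fits, between 6 (without AC CM 1 or AC CM 2) and 11 neighbouring genes passed lower, and the cause was not tested. With the replicate number as a block, 10 of the 34 passed higher and 7 lower, with Pfkfb1 (adjusted p = 0.0522) and Fbp1 (0.0616) lost. Of all genes tested 24.6% passed in that fit. Whether equal numbers pair the samples is not known. Deviations from the group means of same-numbered samples correlated at -0.116, -0.031 and -0.014, and those of differently numbered samples at -0.053 to 0.077. With 3 samples a group, such values cannot show whether samples were handled in pairs. Pfkfb1 was also lost with no filter (0.0642) and with upper quartile scaling (0.0546). Directions that turned belong to genes that did not pass. Without C CM 1 Pfkl was at 0.04 and Aldoa at 0.05, the tops of their ranges from -0.08 and from -0.05 with 1 library left out. The Pdk1 log2 fold change had no stable sign: -0.02 without AC CM 2 and 3, -5.2e-04 with DESeq2, -5.0e-04 with its size factors in edgeR, -0.0040 with counts divided by 4, -0.01 with library totals, -0.04 with a minimum of 5 CPM, -0.0015 with no filter, -0.02 with upper quartile scaling, and -0.08 to 0.04 with 1 library left out. With exon union lengths, chosen after the data were seen, the Pfkl share differed by 0.32 points in place of -4.64. With 3 libraries a group, no share could reach an exact p under 0.10.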

Other observations

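Of the 15 genes that did not pass, 3 had groups that did not overlap. Among all genes tested, groups did not overlap for 44.7%, whereas 26.5% were called. Groups apart without a call were therefore common, and this does not set these 3 genes apart from other genes. Their values are given for completeness. Hk2 was at 77.0, 72.1 and 66.6 CPM after C CM and at 85.1, 88.6 and 79.0 CPM after AC CM. Eno3, the muscle enolase gene, was at 5.38, 4.84 and 4.81 CPM after C CM and at 6.12, 5.62 and 5.51 CPM after AC CM. Pdk3 was at 16.4, 19.0 and 16.5 CPM after C CM and at 15.3, 12.0 and 14.1 CPM after AC CM.

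The oxidative pentose phosphate genes did not pass. G6pdx, the entry enzyme, was at 253 ± 13.3 CPM after C CM and 251 ± 5.54 after AC CM (SD, n = 3), and Pgd at 333 ± 23.3 and 337 ± 6.48 CPM, with log2 fold changes of -0.01 and 0.02. Both were chosen after their values were seen.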
